A study of Mus musculus with 6 samples.

Results

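The Hox cluster genes were compared between induced pluripotent stem (iPS) cells and nuclear-transfer embryonic stem (ntES) cells. The members were the genes named Hoxa, Hoxb, Hoxc or Hoxd with a number, taken from probe sets that the platform annotation gives exactly 1 gene symbol. This rule found 37 genes among 19308 named genes, each with 1 probe set: 10 of the Hoxa, 9 of the Hoxb, 9 of the Hoxc and 9 of the Hoxd cluster. One further probe set, which carried the symbols of 2 neighbouring Hoxb genes, was left out.

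Both groups were derived from tail tip fibroblasts of G3 Terc-/- mice, that is, generation 3 of animals that lack Terc, the RNA template of telomerase, so the controls carry the deletion too. The iPS group and the ntES group had 3 Affymetrix arrays each, 3 biological repeats of each cell line by the design text, and the cells had grown on mitomycin C-treated mouse embryonic fibroblasts (MEFs). How many clones each group holds, and the age and sex of the mice, are not stated in the labels; if each group is 1 line, line and reprogramming method cannot be told apart. All p-values rest on the spread among these 6 arrays, which may be technical in part.

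Hox genes encode homeodomain transcription factors that give cells their position along the head-to-tail axis. In each cluster the genes lie in the order in which they act along the body, with low-numbered genes active toward the head and high-numbered genes toward the tail. In pluripotent stem cells the clusters are held largely silent by Polycomb complexes, with activating and repressive histone marks on the same promoters, and they are opened in order when cells differentiate. Fibroblasts keep a Hox pattern that reflects the body site they came from.

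The Hox genes differed little between the groups. Of the 37, 1 passed an adjusted p of 0.05 in limma's test over all 23344 probe sets. This was Hoxc12, a posterior gene of the Hoxc cluster, which was 1.22-fold higher in ntES cells. Over all probe sets 11.3% passed, 5.19% as higher and 6.13% as lower in ntES cells, against 2.70% of the Hox genes. No Hox gene changed 2-fold, and the 95% interval of the difference lay within 2-fold in both directions for all 37, as it did for 98.4% of all probe sets. The bound farthest from 0 was 1.42-fold, that of Hoxa13. In bulk RNA a change in the number of cells of a type and a change of RNA per cell cannot be told apart. At an unadjusted p under 0.05 there were 10 Hox genes of 37, against 24.6% of all probe sets.

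Most differences nevertheless had the same sign. In the deposited values 32 of 37 Hox genes lay above 0 (higher in ntES cells), against 58.9% of all probe sets, with a median difference of 0.11 (log2) beside 0.04 over all probe sets. The Hox median was 0.18 without ntES replicate 3. This count was 27 after each array was centred on its median, 24 after the arrays were also brought to one spread by the median absolute deviation (MAD), and 23 after quantile normalization, where the median of the Hox genes was 0.019. Over all probe sets the share above 0 was then 44.9%, 43.8% and 51.3%. The sign held under all 4 scalings for 21 Hox genes above 0 and 5 below 0 (Hoxa2, Hoxa5, Hoxb9, Hoxc5 and Hoxc8), and turned for 11.

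**Figure D1:**
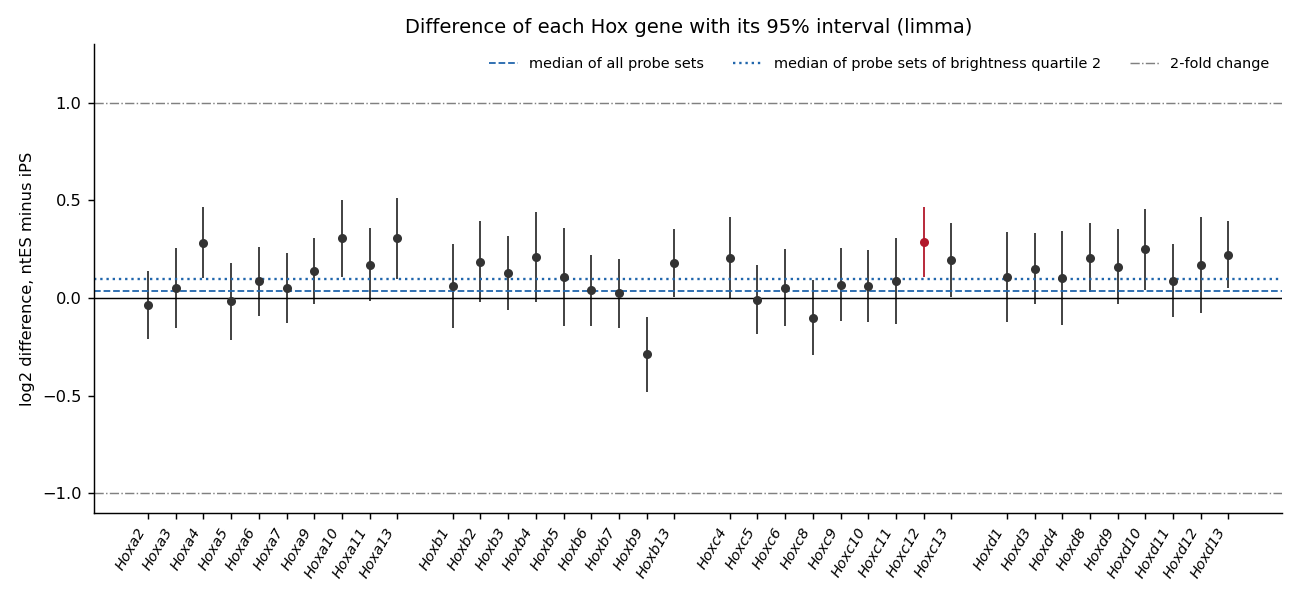
Log2 difference (ntES minus iPS, vertical axis) of each of the 37 Hox genes with its 95% interval from limma, by cluster; the red point is the gene that passed the adjusted p, and the dashed, dotted and dash-dotted lines are the median of all probe sets (0.04), the median of probe sets in the second brightness quartile (0.10) and a 2-fold change. Every interval lies within the 2-fold lines, and 32 points lie above 0.

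The Hox probe sets read low on these arrays, and the table gives no detection call, so which Hox genes stood above background is not known. Of the 37, 33 had a mean under the median probe set (7.66, log2) and 7 under the lower quartile (6.66), and 30 passed a filter at that quartile. Any background left in the signal of a dim probe set would understate its fold change, which was not tested here. Dim probe sets as a whole leaned the same way: in the second quartile of brightness, which held 26 of the Hox genes, 77.9% of all probe sets lay above 0 with a median of 0.10, and 24 of the 26 Hox genes lay above 0 with a median of 0.12. In the lowest quartile 64.8% of all probe sets and 6 of 7 Hox genes lay above 0. In the third quartile 50.3% of all probe sets lay above 0, and so did 2 of 4 Hox genes, with Hoxc12 and Hoxc6 above 0 and Hoxb9 and Hoxc8 below.

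The arrays behind this shift were uneven. The median level of the 37 Hox genes was 6.85, 6.82 and 6.92 (log2) on iPS replicates 1, 2 and 3, and 7.09, 7.00 and 6.89 on ntES replicates 1, 2 and 3, so the highest iPS array lay above the lowest ntES array. The lower quartile of all probe sets was 6.56, 6.58 and 6.67 on the iPS arrays and 6.79, 6.72 and 6.57 on the ntES arrays. Measured from that quartile, the Hox median stood at 0.28, 0.24 and 0.24 in iPS and at 0.30, 0.28 and 0.31 in ntES cells, again with overlap. Of the 37 genes, 18 had their highest reading on ntES replicate 1, 11 on ntES replicate 2 and 4 on ntES replicate 3, and 17 had their lowest on iPS replicate 2. The spread over all probe sets ran from an SD of 1.51 on ntES replicate 1 to 1.74 on ntES replicate 3. Its part in the Hox differences was not tested beyond the scalings given above. Without the arrays of narrowest spread in each group (iPS replicate 3 and ntES replicate 1), 31 of 37 genes lay above 0 and the median was 0.12. Identical readings, to 6 decimals, occurred on 2 or more arrays for 14 Hox genes, as they did for 20% of all probe sets, and 9 Hox genes shared a reading between the groups.

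**Figure D2:**
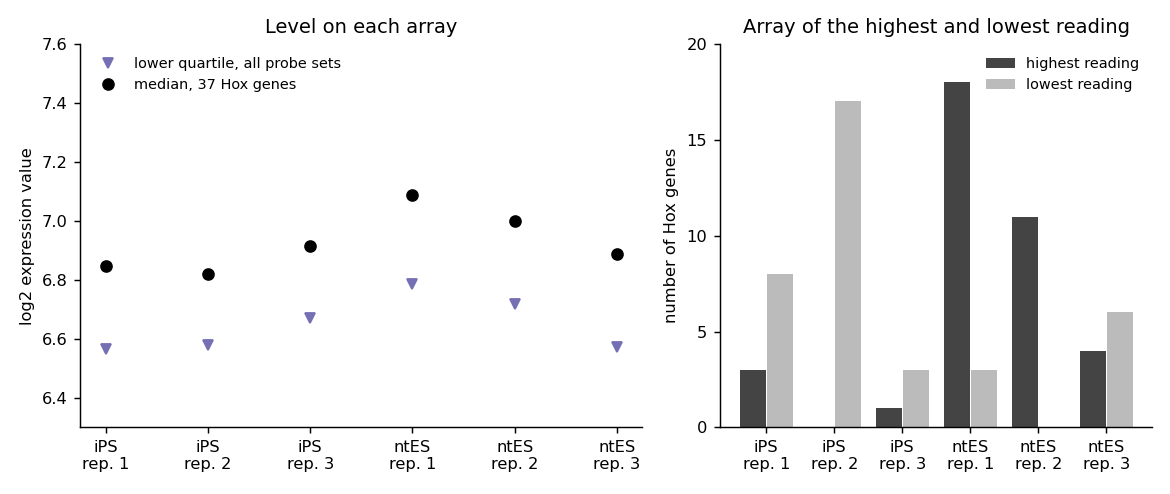
Left, the median log2 level of the 37 Hox genes (circles) and the lower quartile of all probe sets (triangles) on each of the 6 arrays; right, the number of Hox genes whose highest (dark bars) or lowest (light bars) reading fell on each array. The Hox median runs from 6.82 on iPS replicate 2 to 7.09 on ntES replicate 1, and the lower quartile of all probe sets is also highest on ntES replicate 1.

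In the Hoxa cluster 8 of 10 genes lay above 0, with a median of 0.11, and none passed the adjusted p, although 3 had an unadjusted p under 0.05. After quantile normalization 5 of the 10 lay above 0. Hoxa2, which patterns the second pharyngeal arch and hindbrain, Hoxa3, needed for the thymus and parathyroid, and Hoxa5, which acts in lung and skeletal patterning, differed by -0.04, 0.05 and -0.02. Hoxa6 and Hoxa7, trunk genes, differed by 0.09 and 0.05, and Hoxa9, active in blood progenitors, by 0.14.

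The larger differences were those of Hoxa4 and of the posterior genes. Hoxa10, which acts in uterus and hindlimb patterning, read 7.34, 7.13 and 7.36 (log2) in iPS and 7.55, 7.55 and 7.64 in ntES cells. All 3 ntES arrays were above all 3 iPS arrays, and the difference was 0.30 ± 0.09 (log2, SE; adjusted p = 0.0509, limma). Hoxa13, which forms the digits and the end of the gut and urogenital tract, read 6.77, 6.81 and 6.93 in iPS and 7.29, 7.12 and 7.02 in ntES cells. Its groups did not overlap either, with ntES replicate 1 highest, and it differed by 0.30 ± 0.09 (adjusted p = 0.0632, limma). Hoxa4 was picked out after its values were seen. It read 7.32, 7.44 and 7.49 in iPS and 7.72, 7.73 and 7.64 in ntES cells, a difference of 0.28 ± 0.08 (adjusted p = 0.0509, limma). These genes passed after quantile normalization, at smaller differences of 0.22 for Hoxa10 (adjusted p = 0.0393), 0.21 for Hoxa13 (0.0115) and 0.22 for Hoxa4 (0.00944), where 30.1% of all probe sets passed. After median centring Hoxa10, Hoxa13 and Hoxa4 missed the threshold (adjusted p = 0.108, 0.118 and 0.1). Hoxa10 and Hoxa13 also missed it with the unmoderated test (0.148 and 0.194). Both missed it without iPS replicate 1 (0.123 and 0.246), iPS replicate 2 (0.27 and 0.238) or ntES replicate 2 (0.176 and 0.206). Hoxa11, a gene of the forearm and lower leg, differed by 0.17 ± 0.08, and its iPS replicate 3 lay just above its ntES replicate 3, both at 6.72.

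The sequence before the start sites of Hoxa10 and Hoxa13, the Hoxa genes of largest difference, is shown because the Polycomb state of silent Hox genes is known to sit on CpG-rich DNA. Each line gives the 250 bases upstream of a RefSeq start (GRCm38.p6), 5′ to 3′ on the minus strand on which these genes lie, with CpG dinucleotides in capitals. Hoxa10 has a start near Hoxa9 and a start farther out.
Hoxa10, inner start, chr6:52234940-52235189: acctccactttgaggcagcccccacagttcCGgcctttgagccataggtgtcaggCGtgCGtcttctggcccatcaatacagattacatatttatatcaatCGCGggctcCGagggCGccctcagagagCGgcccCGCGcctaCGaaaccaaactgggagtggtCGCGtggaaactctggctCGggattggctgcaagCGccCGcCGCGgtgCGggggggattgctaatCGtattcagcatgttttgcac
Hoxa10, outer start, chr6:52240855-52241104: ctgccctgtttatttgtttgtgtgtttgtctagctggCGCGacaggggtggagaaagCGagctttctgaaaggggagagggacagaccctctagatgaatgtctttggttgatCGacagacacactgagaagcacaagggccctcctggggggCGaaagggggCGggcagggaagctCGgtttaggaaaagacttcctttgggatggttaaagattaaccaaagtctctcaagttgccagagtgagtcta
Hoxa13, chr6:52260881-52261130: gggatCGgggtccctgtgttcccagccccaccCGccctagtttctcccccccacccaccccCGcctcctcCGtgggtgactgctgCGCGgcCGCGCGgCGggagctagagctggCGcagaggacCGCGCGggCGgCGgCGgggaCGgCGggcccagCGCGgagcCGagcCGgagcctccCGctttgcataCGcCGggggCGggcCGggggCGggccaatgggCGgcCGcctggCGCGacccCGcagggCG
The windows hold 20, 7 and 35 CpG dinucleotides, and the Hoxa13 window is 80.0% G and C.

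RefSeq start windows were matched for 21 of the 37 Hox genes, 23 windows in all, and were compared with 32841 windows of the same length. The median count of CpG was 13 in the Hox windows and 6 in all windows, and the ratio of observed to expected CpG was 0.687 beside 0.374. A ratio over 0.6 together with more than 50% G and C was found in 47.8% of the Hox windows and in 30.8% of all windows. The homeodomain core letters TAATTA, searched on both strands, were in both Hoxd11 windows (8.7% of Hox windows, 4.84% of all). The letters TGATTNAT, bound by pairs of Pbx and Hox proteins, were in 1 window each of Hoxa2 and Hoxd11 (8.7% and 2.83%); matches of these motifs were allowed to overlap. The letters TATAAA were in windows of Hoxa10, Hoxd4 and Hoxd13 (13% and 12.4%), searched on both strands. Such matches describe the letters only.

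**Figure D3:**
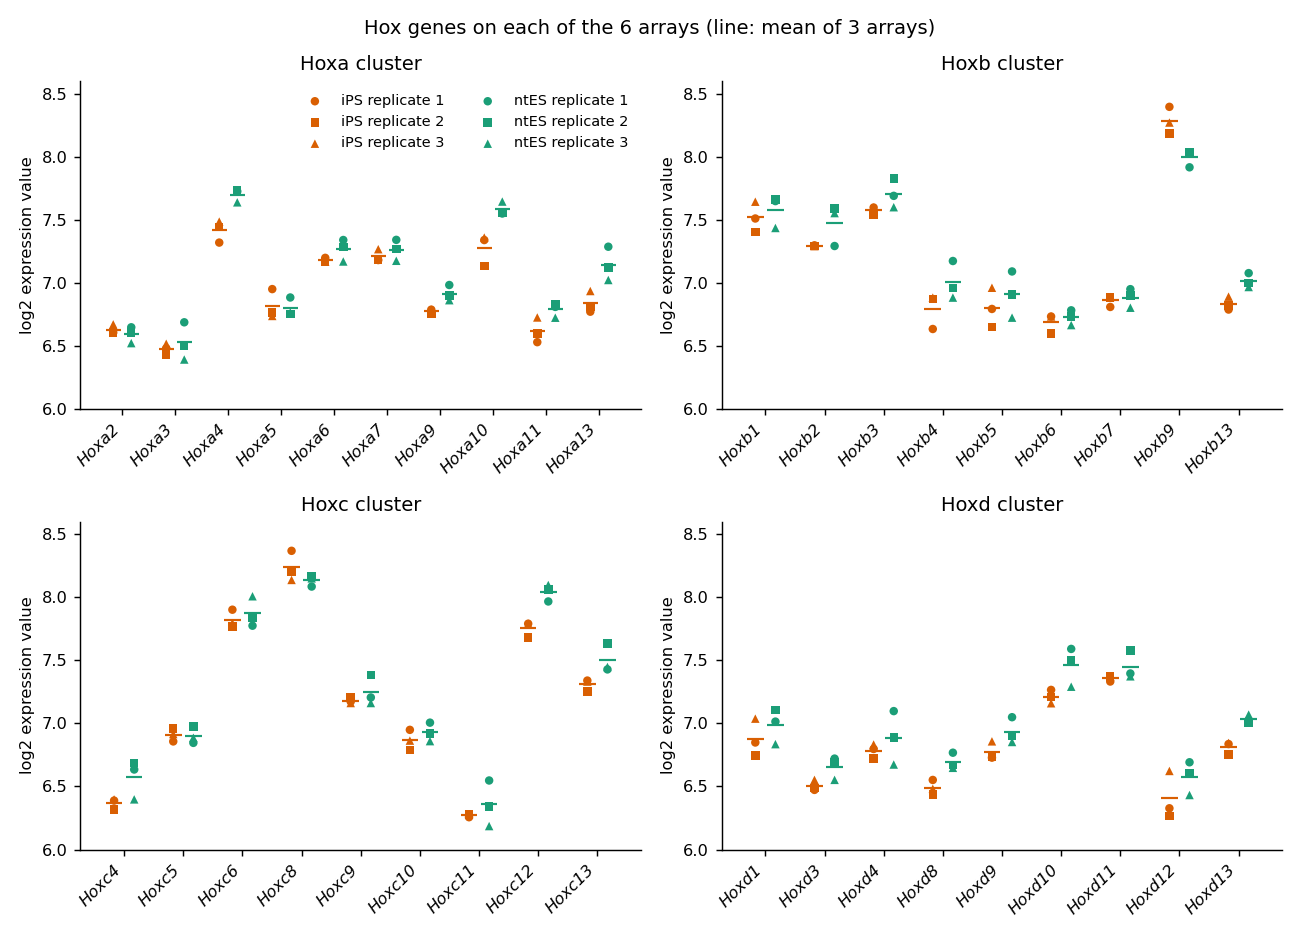
Log2 expression values (vertical axis) of the 37 Hox genes on each of the 6 arrays, by cluster, with iPS in orange and ntES in green; symbols mark the replicate number and short lines the mean of 3 arrays. Levels of different genes come from different probe sets and are not to be compared. Within a gene the group means lie within 0.31 of each other, while single readings can differ by more.

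In the Hoxb cluster 8 of 9 genes lay above 0, with a median of 0.11. This median was 0.0295 without ntES replicate 1, 0.0355 without iPS replicate 2 and 0.0659 without ntES replicate 2. In the deposited values none passed the adjusted p (2 at an unadjusted p under 0.05). After quantile normalization 5 of 9 lay above 0, with a median of 0.0188. Hoxb9, which acts in rib and thoracic patterning, went the other way. It read 8.40, 8.18 and 8.27 in iPS and 7.92, 8.04 and 8.04 in ntES cells, and all iPS arrays were above all ntES arrays. The difference was -0.29 ± 0.09 (log2, SE; adjusted p = 0.0597, limma), and it passed after median centring (-0.35, adjusted p = 0.0297), after quantile normalization (-0.30, 0.00454) and without dim probe sets (0.0483). Those settings called 11.7%, 30.1% and 15.9% of all probe sets. Hoxb9 missed the threshold without iPS replicate 1, 2 or 3 (adjusted p = 0.26, 0.116 and 0.124). The same held without ntES replicate 1 or 2 (0.109 and 0.184), while it passed without ntES replicate 3 (0.0366). It also missed with the replicate number as a block (0.216) and with the unmoderated test (0.148). Hoxb9 was the 1 Hox gene whose ntES readings all lay below its iPS readings, an order found in 12.9% of all probe sets.

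Hoxb4, known for expanding blood stem cells, read 6.63, 6.87 and 6.88 in iPS and 7.17, 6.96 and 6.88 in ntES cells. The reading of iPS replicate 3 equalled that of ntES replicate 3, and the difference was 0.21 ± 0.10 (adjusted p = 0.251, limma). Hoxb1, a hindbrain gene that responds early to retinoic acid, read 7.51, 7.40 and 7.64 in iPS and 7.65, 7.66 and 7.43 in ntES cells, with the groups mixed and a difference of 0.06 ± 0.10. Hoxb2, also of the hindbrain, was nearly constant in iPS cells (7.30, 7.29 and 7.29) and read 7.29, 7.59 and 7.55 in ntES cells, so that ntES replicate 1 lay with the iPS arrays. Hoxb3, Hoxb5, Hoxb6 and Hoxb7 differed by 0.13, 0.11, 0.04 and 0.02, and Hoxb13, the posterior end gene, by 0.18 ± 0.08 with no overlap between the groups.

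In the Hoxc cluster 7 of 9 genes lay above 0, with a median of 0.07; the median was -0.0092 after MAD scaling, with 3 of 9 above 0, and 0.113 without ntES replicate 3. Hoxc12 read 7.79, 7.68 and 7.79 in iPS and 7.97, 8.06 and 8.10 in ntES cells. All ntES arrays were above all iPS arrays, and the difference was 0.29 ± 0.08 (log2, SE; adjusted p = 0.0449, limma). Leaving out iPS replicate 1, 2 or 3 raised the adjusted p to 0.13, 0.236 and 0.0888, and leaving out ntES replicate 2 raised it to 0.209. It also missed the threshold after median centring (0.101) or with the unmoderated test (0.0861); it passed after quantile normalization (0.00319).

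Hoxc13, a gene of hair and nail that neighbours Hoxc12, differed by 0.19 ± 0.09 (log2, SE), also with no overlap, and did not pass (adjusted p = 0.193, limma). Hoxc4, at the head end of the cluster, read 6.39, 6.32 and 6.40 in iPS and 6.63, 6.69 and 6.40 in ntES cells. The third replicates of both groups read alike, and the difference was 0.21 ± 0.09 (adjusted p = 0.207, limma). Hoxc8, a thoracic gene, read 8.37, 8.20 and 8.14 in iPS and 8.09, 8.17 and 8.15 in ntES cells, a difference of -0.10 ± 0.09 with overlap. Hoxc5, Hoxc6, Hoxc9, Hoxc10 and Hoxc11 differed by -0.01, 0.05, 0.07, 0.06 and 0.09.

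In the Hoxd cluster all 9 genes lay above 0, from 0.09 for Hoxd11 to 0.25 for Hoxd10, with a median of 0.16. All 9 were also above 0 after median centring and after MAD scaling, and 8 after quantile normalization, where the median was 0.067. None passed the adjusted p, and 3 had an unadjusted p under 0.05. Hoxd10, which patterns hindlimb motor neurons, read 7.27, 7.21 and 7.16 in iPS and 7.59, 7.50 and 7.29 in ntES cells, with no overlap and a difference of 0.25 ± 0.09 (adjusted p = 0.128, limma). Hoxd13, a digit gene and paralog of Hoxa13, read 6.84, 6.76 and 6.85 in iPS and 7.03, 7.01 and 7.07 in ntES cells. These groups did not overlap either, and the difference was 0.22 ± 0.08 (adjusted p = 0.0955, limma). Hoxd8 differed by 0.20 ± 0.08 with no overlap, while Hoxd1, Hoxd3, Hoxd4, Hoxd9 and Hoxd12 differed by 0.11, 0.15, 0.10, 0.16 and 0.17 with overlapping or equal readings.

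Across clusters, genes were also grouped by paralog number, which follows the body axis. Of the 16 genes numbered 9 to 13, which act toward the tail, 15 lay above 0 with a median of 0.17, and 8 had all ntES arrays above all iPS arrays. Of the 11 genes numbered 1 to 4, 10 lay above 0 with a median of 0.127. The order of all ntES arrays above all iPS arrays held for Hoxa4 and Hoxb3 among them. Of the 10 numbered 5 to 8 it held for Hoxd8. In all it held for 11 Hox genes, against 13.6% of all probe sets and 18.5% of those in the second brightness quartile. After quantile normalization it held for 4 of the 16 posterior genes, with a median of 0.084. For the 11 genes numbered 1 to 4 these values were 3 and 0.062. In all it then held for 7 Hox genes, against 21.2% of all probe sets. The middle genes numbered 5 to 8 had a median of 0.045 in the deposited values, with 7 of 10 above 0. That median was 0.0131 without ntES replicate 1 and 0.0285 without iPS replicate 2, and it turned to -0.045 after quantile normalization, with 3 of 10 above 0. Differences between these groups of paralogs were not tested.

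**Figure D4:**
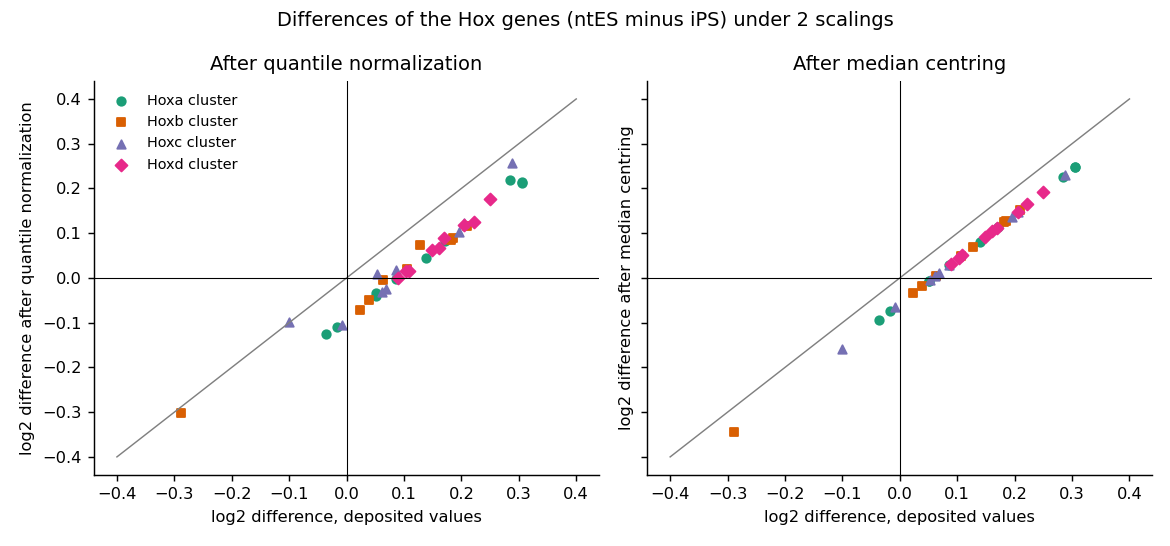
Log2 difference (ntES minus iPS) of each Hox gene in the deposited values (horizontal axis) against the same difference after quantile normalization (left) or after centring each array on its median (right); the diagonal marks equal values. Points fall below the diagonal, except Hoxc8 on the left, and 23 and 27 of 37 genes stay above 0.

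The genes beside and within the clusters were taken in RefSeq gene order. The 40 flanking genes, 5 on each side of each cluster, had a median difference of -0.01, with 1 called higher and 3 called lower in ntES cells. The share called was 10%, near the 11.3% of all probe sets. Of the 40, 12 had a mean under the median probe set, against 33 of the 37 Hox genes, so the 2 sets differ in brightness. On either side of the Hoxa cluster, Skap2, an adaptor of immune cell signalling, and Hibadh, a mitochondrial enzyme of valine breakdown, fell by 0.44 and 0.45 (log2; adjusted p = 0.0162 and 0.032, limma), while the Hoxa genes between them had a median of 0.11. Leaving out 1 array ended both calls, with adjusted p of 0.0917 and 0.124 without iPS replicate 1, 0.098 and 0.164 without iPS replicate 2, and 0.0994 and 0.123 without ntES replicate 2, and that of Hibadh (0.0503) without ntES replicate 1. Beyond the Hoxb13 end of the Hoxb cluster, Calcoco2, an autophagy receptor, read 8.84, 8.91 and 8.69 in iPS and 9.97, 10.23 and 10.51 in ntES cells, a rise of 1.42 ± 0.13. Its neighbour Ttll6, a tubulin polyglutamylase, fell by 0.61 ± 0.09. The homeobox genes Evx1 and Evx2, which border the Hoxa and Hoxd clusters, differed by -0.02 ± 0.08 and 0.15 ± 0.09 and did not pass.

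**Figure D5:**
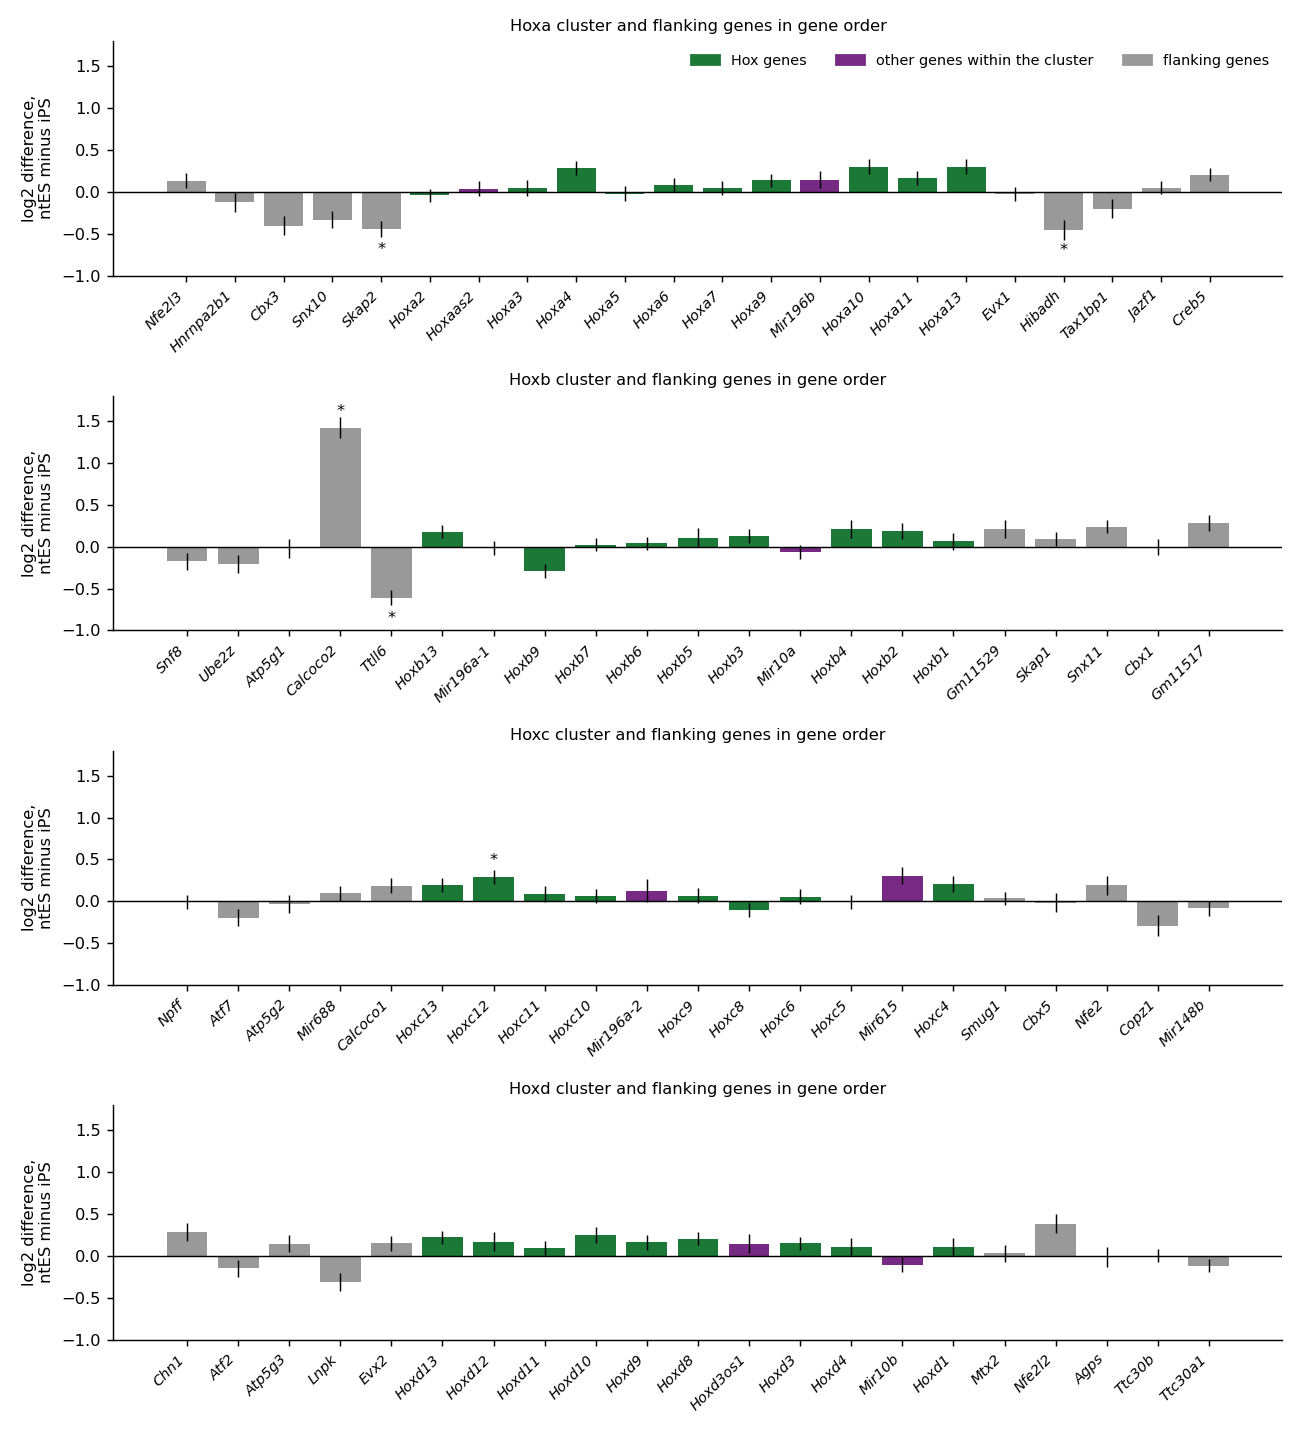
Log2 difference (ntES minus iPS, bars with standard errors) of the measured genes in RefSeq gene order across each Hox cluster and 5 genes on each side; green bars are Hox genes, purple bars other genes within a cluster, grey bars flanking genes, and stars mark an adjusted p under 0.05. The called genes are Hoxc12 and 4 flanking genes, with Calcoco2 at 1.42.

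Within the clusters 8 other genes were measured, of which none passed the adjusted p and 1, Mir615, had an unadjusted p under 0.05. The noncoding RNAs Hoxaas2 and Hoxd3os1 differed by 0.04 and 0.14. The 6 microRNA genes are shown by their mature 5′ arms (3′ arm for miR-615), because they are transcribed from within the Hox clusters and miR-196 is known to repress Hox genes. Seeds (bases 2 to 8) are in capitals, and the sequences are RefSeq's for GRCm38.p6.
mmu-miR-196a-5p: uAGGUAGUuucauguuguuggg
mmu-miR-196b-5p: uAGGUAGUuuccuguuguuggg
mmu-miR-10a-5p: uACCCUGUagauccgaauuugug
mmu-miR-10b-5p: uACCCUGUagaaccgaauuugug
mmu-miR-615-3p: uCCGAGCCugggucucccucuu
The miR-196 genes share one seed and the miR-10 genes another. Each probe set is listed for a hairpin, so arms cannot be told apart, nor can hairpin and host transcript. Mir615, which lies inside the Hoxc5 gene region, read 7.87, 7.91 and 8.07 in iPS and 8.42, 8.22 and 8.13 in ntES cells, without overlap, a difference of 0.31 ± 0.10 (log2, SE; adjusted p = 0.0779, limma). Mir196b, Mir196a-1 and Mir196a-2 differed by 0.15, -0.02 and 0.13, and Mir10a and Mir10b by -0.06 and -0.10, and none of these passed.

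Hox proteins bind DNA with cofactors of the TALE class, such as the Meis and Pbx proteins. Of 9 such genes measured, Meis2 rose, from 7.98, 7.78 and 7.76 in iPS to 8.50, 8.70 and 8.93 in ntES cells, by 0.87 ± 0.12 (log2, SE; adjusted p = 0.00111, limma), and none fell. It did not pass with the unmoderated test (0.0692). The share of these cofactor genes called was 11.1%, near the 11.3% of all probe sets. A list of 11 homeobox genes held the caudal genes and Hox activators Cdx1, Cdx2 and Cdx4, other ParaHox genes, and Evx, Mnx and Meox genes. Evx1 and Evx2 are also among the flanking genes. Of the 11 none passed, also at an unadjusted p under 0.05, and the median was 0.11. Cdx2 differed by 0.00049 ± 0.092.

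The RNA of genes tied to the signals that set the Hox pattern changed in both directions. Of 18 genes of retinoic acid, the vitamin A derivative that opens Hox clusters in order, 3 rose and 3 fell. The share called was 33.3%, against 11.3% of all probe sets. Cyp26a1, which degrades retinoic acid, rose by 0.52 and the receptor Rarg by 0.34. The binding protein Crabp1 fell by 0.73 and the receptor Rara by 0.53. The probe set of Cyp26a1 was dim, with a mean of 6.44 under the lower quartile of 6.66, and the dim filter removed it. The call of Cyp26a1 was lost on leaving out iPS replicate 1 (adjusted p = 0.0716), iPS replicate 2 (0.0729) or ntES replicate 2 (0.0606), that of Rara on leaving out the same arrays (0.0546, 0.0558 and 0.0521), and that of Rarg on leaving out these (0.0775, 0.0831 and 0.122) or iPS replicate 3 (0.0768). With the unmoderated test these genes missed the threshold, at 0.0924 for Crabp1, 0.111 for Rara, 0.129 for Cyp26a1 and 0.0515 for Rarg. Of 10 posterior body genes, which were signals and transcription factors, 20% were called, against 11.3% of all probe sets. Gdf11, which promotes the switch to posterior Hox genes, rose by 0.40 ± 0.08, and Nkx1-2, a marker of axial progenitors, fell by 0.84 ± 0.09. The call of Gdf11 was lost on leaving out iPS replicate 1, iPS replicate 2 or ntES replicate 2 (0.0529, 0.0719 and 0.0848).

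Of 26 Polycomb genes, which keep Hox clusters silent, 4 rose and 1 fell, with a median of 0.06. The share called was 19.2%, against 11.3% of all probe sets. Kdm2b, which brings Polycomb to CpG islands, rose by 0.59 ± 0.10, Mtf2, a partner of the methylating complex, by 0.46 and Pcgf5 by 0.37, and Pcgf2, a subunit of the other complex, fell by 0.53. Leaving out iPS replicate 1, iPS replicate 2 or ntES replicate 2 ended the calls of Mtf2 (adjusted p = 0.0769, 0.0649 and 0.0967), Pcgf5 (0.109, 0.0702 and 0.126) and Pcgf2 (0.077, 0.0646 and 0.0846), and leaving out iPS replicate 3 those of Mtf2 (0.0751) and Pcgf5 (0.101). That of Pcgf5 was also lost after median centring (0.0624). With the unmoderated test none of these passed, at 0.0768 for Kdm2b, 0.162 for Mtf2, 0.139 for Pcgf5 and 0.145 for Pcgf2. Of 11 trithorax genes and demethylases that oppose Polycomb, none passed, and 2 had an unadjusted p under 0.05.

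Markers of other cell types were read on the same arrays. Of 37 fibroblast and feeder markers, 34 lay above 0, 10 rose and 1, Thy1, fell (-0.60), with a median of 0.27. The share called was 29.7%, against 11.3% of all probe sets, of which 58.9% lay above 0. The summed linear signal of these markers was 56560 to 69690 on the iPS and 67880 to 88040 on the ntES arrays, which overlap. The 4 called of largest change were Timp3 (0.89), an inhibitor of matrix proteases, the matrix proteins Ccn2 (0.77) and Ccn1 (0.63), and Postn (0.74). Of 15 neurectoderm markers 10 lay above 0, with a median of 0.08, and 1 rose and 2 fell (20% called). Their sum was 3252 to 3324 in iPS and 3135 to 3181 in ntES cells. Neurod1 rose by 0.52, and Tubb3 and Map2 fell by 0.66 and 0.44; the call of Map2 was lost without iPS replicate 1 (adjusted p = 0.0644) or ntES replicate 2 (0.0606). Of 14 mesoderm markers 12 lay above 0, with a median of 0.13, and 1 rose and 1 fell (14.3% called). Their sum was 2291 to 2327 in iPS and 2159 to 2306 in ntES cells. Eomes fell by 1.11 and Gata4 rose by 0.31, and median centring ended the call of Gata4 (adjusted p = 0.0735), as did leaving out replicate 1 (0.174) or 2 (0.204) of iPS or replicate 2 (0.22) of ntES cells. The part of these cells in the Hox differences was not tested. Of 15 pluripotency markers all read above the median probe set, and 5 lay above 0, with a median of -0.175. Of these markers 4 fell and none rose (26.7% called), and their sum was 36950 to 43160 in iPS and 32890 to 43120 in ntES cells. Those that fell were Esrrb (-0.79), Gdf3 (-0.69), Zfp42 (-0.49) and Klf4 (-0.47). Leaving out iPS replicate 1, iPS replicate 2 or ntES replicate 2 ended the calls of Zfp42 (adjusted p = 0.0954, 0.11 and 0.0827) and Klf4 (0.0706, 0.0867 and 0.0738). Terc read 7.62 to 7.85 in iPS and 7.82 to 7.90 in ntES cells; without Terc wild-type arrays or the probe positions, the deletion could not be checked from these readings.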

How the data were processed

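The values the authors deposited are log2 expression levels for 23344 probe sets on 6 arrays, a scale taken from the values, which ran from 3.6 to 13.7. Per the submitters' processing notes the authors used GCOS 1.4; background correction, normalization, summary and genome build were not given in the sources used here. Trizol RNA was biotin-labelled, per the labels' protocols. Groups and replicate numbers came from the sample titles.

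The platform annotation gave 1 symbol for 20746 probe sets, several for 1183, and did not list 1415. A gene was its brightest probe set over the 6 arrays. Hox transcripts of neighbouring genes can overlap, and whether probe sets share exons was not checked. All probe sets were fitted with limma 3.58.1 (lmFit, eBayes) in R 4.3.3 as ntES minus iPS, without covariates, with Benjamini-Hochberg adjustment, and called at an adjusted p under 0.05. Adjusted p-values in the text are limma's. SE is the standard error of the difference (moderated). The number of arrays limits the precision. The test was checked on simulated data. Groups were counted as apart when all 3 readings of one lay above all 3 of the other, ties excluded.

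All array values are given for called Hox genes and the 2 of largest difference in each cluster, and for some others chosen after their values were seen. Of each other list, up to 4 called genes of largest change were to be named. The members and lists were chosen with earlier results of these data known. The alternatives were quantile normalization, median centring, median and MAD scaling, a filter on dim probe sets, the mean of all probe sets, array weights, robust priors with a variance trend, the replicate number as a block, a threshold of 0.01, an unmoderated test, leaving out each replicate, and, added after seeing the data, leaving out the 2 arrays of narrowest spread. Figures used Python 3.11.15 and matplotlib 3.10.9.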

Additional observations from a re-analysis of the deposited data

How the results depend on the processing

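The count of 1 called Hox gene depended on the setting, and so did the share of all probe sets called, 11.3% in the main test. It was 5 after quantile normalization (30.1% of all probe sets) and after median and MAD scaling (25.1%), 4 without dim probe sets (15.9%), 6 with a variance trend and robust priors (15.9%) and 26 with array weights (65.4%). It was 0 at an adjusted p of 0.01 (4.93%) and with the unmoderated test (3.01%), 2 without the 2 arrays of narrowest spread (12.8%), and 0 to 6 when 1 replicate was left out, with 6 without ntES replicate 3 (21.6%), 2 without ntES replicate 1 (12.6%), and 0 without iPS replicate 1, 2 or 3 (4.86%, 4.46% and 8.38%) or ntES replicate 2 (4.34%). After median centring 1 gene passed, Hoxb9 in place of Hoxc12. The count of Hox genes whose groups did not overlap was 12 in the deposited values (26.5% of all probe sets). It was 11 after quantile normalization (43.9%) and 9 after median and MAD scaling (41.7%). Without the 2 arrays of narrowest spread it was 20 (51.5%). It was 12 to 24 when 1 replicate was left out, with 19 without iPS replicate 3 (41.5%) and 24 without ntES replicate 3 (54.4%). Fewer arrays overlap less often. The median difference of the Hox genes was 0.0188 after quantile normalization and 0.0194 after MAD scaling, and 0.0961 to 0.18 when 1 replicate was left out. That of the Hoxa cluster was 0.0207 and 0.0276, and that of the Hoxd cluster 0.0674 and 0.0549. The 8 Hox genes given by the naming rule were picked for a call or a large difference in these same data. Each kept its sign under every setting run, while 11 of all 37 Hox genes changed sign between the 4 scalings. The mean of all probe sets changed nothing, since each Hox gene had 1 probe set.

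With the replicate number as a block 0 Hox genes passed, and Hoxc12 had an adjusted p of 0.212 at the same difference. Deviations of same-numbered arrays from their group means correlated at -0.431, -0.103 and -0.721. Those of iPS replicate 3 and ntES replicate 1, the arrays of narrowest spread in each group, correlated at 0.692. With 3 arrays per group, such correlations cannot show whether the numbers pair the samples. The replicate block called 1983 probe sets, against 2643 without it, and lost the calls of Pcgf5 (adjusted p = 0.0694), Rarg (0.106) and Gata4 (0.163). The unmoderated test also lost those of Timp3, Ccn1, Ccn2, Postn, Esrrb, Gdf3, Zfp42, Klf4, Neurod1, Map2, Gata4, Skap2, Hibadh and Ttll6. Apart from scaling, the causes of these changes were not tested. Low signal limits what can be seen of a Hox gene that is near silent.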
